A study of Mus musculus with 12 samples.

Results

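Colon tumors that were still adenomas, benign growths of the epithelium, at the end of follow-up were compared between an early and a late biopsy of the same tumor. They were chosen as the tumors whose late biopsy the labels read as adenoma, which gave 3 of the 6 mice of the series and 6 of its 12 arrays. The animals were F1 hybrids of SWR females and C57BL/6 males, all heterozygous for the Min allele of Apc (Apc Min/+), and all had been given 4% dextran sodium sulfate, which strips the surface of the colon and causes colitis, in 2 cycles of 4 days around weaning. Early biopsies were taken at 94 days of age from mouse 1755 (a female), at 87 days from mouse 1803 and at 86 days from mouse 1805 (both males). The late biopsies of these mice followed at 234, 369 and 395 days, so 140, 282 and 309 days lay between the biopsies. The other 3 mice, 2201, 3407 and 3413, had the same genotype and treatment, and their tumors ended as intramucosal carcinoma, a malignant growth still within the mucosa. They were biopsied at 95, 87 and 117 days and again at 267, 215 and 200 days. Early biopsies carry no pathology of their own in the labels, and each was placed by the final reading of its tumor. Every group therefore shares the Apc allele and the colitis, no untreated colon is included, and age and time since injury move with the time point.

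Apc is part of the complex that marks beta-catenin for destruction, and a tumor that loses its function keeps Wnt target genes switched on without needing an outside signal. Wnt ligands act through Frizzled receptors and Lrp co-receptors, and the pathway restrains itself through secreted inhibitors and feedback genes that are themselves Wnt targets. An intestinal adenoma also holds vessels, fibroblasts and immune cells, and a biopsy measures them together. In such bulk samples a smaller number of cells of a type and less RNA per cell cannot be told apart.

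Each biopsy was measured once, on an Affymetrix mouse gene array, and the deposited values of 19938 genes were read as log2 intensities. Array medians lay between 7.62 and 7.80. Of 16 epithelial identity genes fixed as markers, 15 were measured, and their mean level lay between 12.23 and 12.41 on the early adenoma arrays and between 12.05 and 12.54 on the late ones. The arrays fall into sets that run with time. The mean of the first 50 probe sets of the deposited table, which carry no gene name, was 7.08 to 7.19 on the 3 early adenoma arrays and 7.13 on the early array of mouse 2201, and 6.80 to 6.94 on the other 8 arrays. The submitters' sample numbers, cut between 255 and 319, give the same sets, at 155 to 255 against 319 to 379. The early adenoma arrays are numbered 155 to 157 and the early array of mouse 2201 is 255. Its place thus rests on the probe set mean and on where the numbers were cut. In the adenoma tumors this split and the time point cannot be told apart, because all 3 pairs cross it; the pair of mouse 2201 crosses it too, whereas those of mice 3407 and 3413 do not. The changes in these 3 carcinoma tumors are therefore given beside the main results. The late array of mouse 1805 had the lowest median correlation with the other arrays, 0.964, against 0.975 to 0.987 on the other 11.

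The median change from early to late over all genes was close to 0 in each adenoma mouse (0.00, -0.03 and -0.02 on the log2 scale in mice 1755, 1803 and 1805). In mouse 1755, 359 genes were at least 2-fold higher late and 246 at least 2-fold lower. Mouse 1803 had 445 higher and 215 lower, and mouse 1805, the mouse with the longest interval, had 484 higher and 467 lower. Across genes, which are not independent replicates, the changes of mice 1755 and 1803 correlated at r = 0.51, with 205 genes at least 2-fold higher in both, 68 lower in both and 16 in opposite directions. Mouse 1805 correlated with each of them at r = 0.28. It shared 66 higher and 80 lower genes with mouse 1755 and had 43 in the opposite direction, and shared 111 higher and 78 lower with mouse 1803 and had 35 in the opposite direction.

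**Figure D1:**
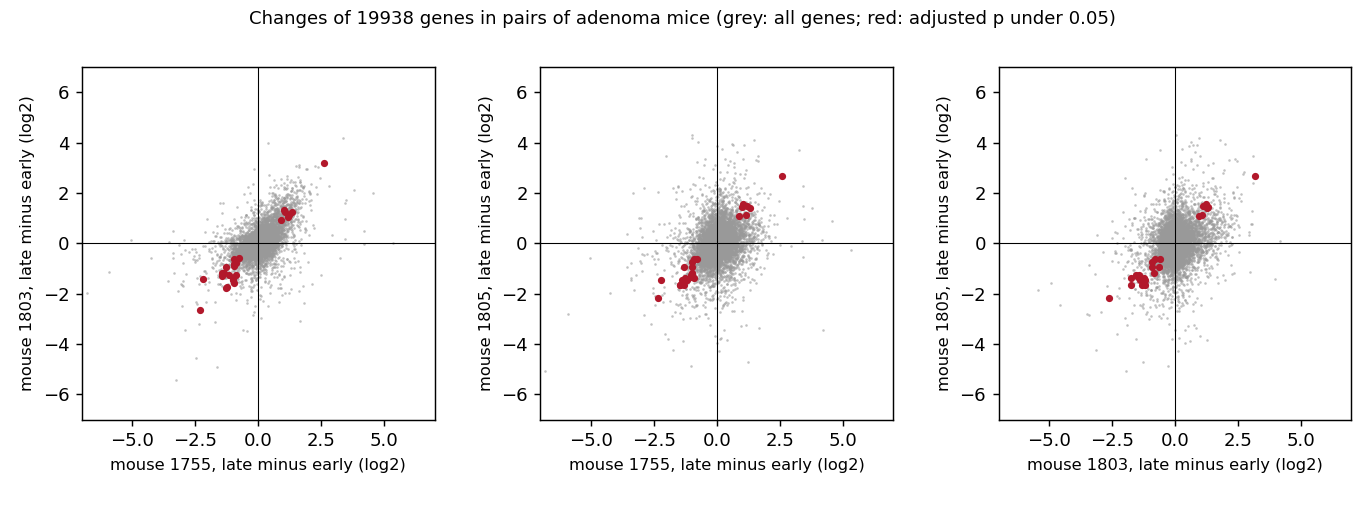
Change from early to late biopsy (log2) of all 19938 genes in each pair of adenoma mice, one point per gene. Mice 1755 and 1803 resemble each other more (r = 0.51) than either resembles mouse 1805 (r = 0.28), and the 25 genes past the threshold, in red, lie in the same quadrant in every panel. The red genes were chosen on these changes.

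A fit with each mouse as its own block asked which genes had a mean change other than 0 in the 3 adenoma tumors. The spread behind its SEs and p-values was estimated from the adenoma and carcinoma pairs together. At an adjusted p under 0.05 (limma, Benjamini-Hochberg over all genes) 25 of 19938 genes passed, 0.125% of those tested, with 7 higher late (0.0351%) and 18 lower (0.0903%). Those that rose were Hp, Ddah1, Sema6d, C5ar1, Glis3, Bst1 and Egfl7. Those that fell were Gulo, Efcab1, Cyp2d12, Spink1, Fer1l6, Lypd6, Wnt10a, Wnt6, Slc16a10, Zfp758, Fzd10, Zfp709, Gpc1 and 5 small RNAs. All 25 moved the same way in 3 of 3 mice, by at least 0.59 in every mouse, and in 19 of them the early and late arrays did not overlap (15.3% of all genes did not, 7.42% higher and 7.83% lower). The 25 genes were chosen on these same changes, so these counts describe them and are no further support. A further measure, a change of at least 2-fold the same way in all 3 mice, was met by 93 genes (0.466%), 50 of them higher (0.251%) and 43 lower (0.216%), of which 16 also passed the test. Without adjustment, 3597 genes (18.0%) had a p under 0.05, 1472 higher (7.38%) and 2125 lower (10.7%). The number that passed rests on each mouse: without mouse 1755, 1803 or 1805 it was 0 (with 2391, 3328 and 2979 genes at an unadjusted p under 0.05), without the carcinoma mouse 3407 it was 2 and without 3413 it was 3, and without 2201 it was 78. With the array set as a term, 0 of 19938 genes passed and 1142 had an unadjusted p under 0.05. The 25 genes kept their direction and an unadjusted p under 0.05, with adjusted p-values of 0.493 to 0.845. That term is estimated from the carcinoma pairs only, as the change in mouse 2201 against those in mice 3407 and 3413. It therefore rests on mouse 2201, the only carcinoma pair that crosses the split. On the adenoma arrays alone 0 genes passed, with 2846 at an unadjusted p under 0.05.

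**Figure D2:**
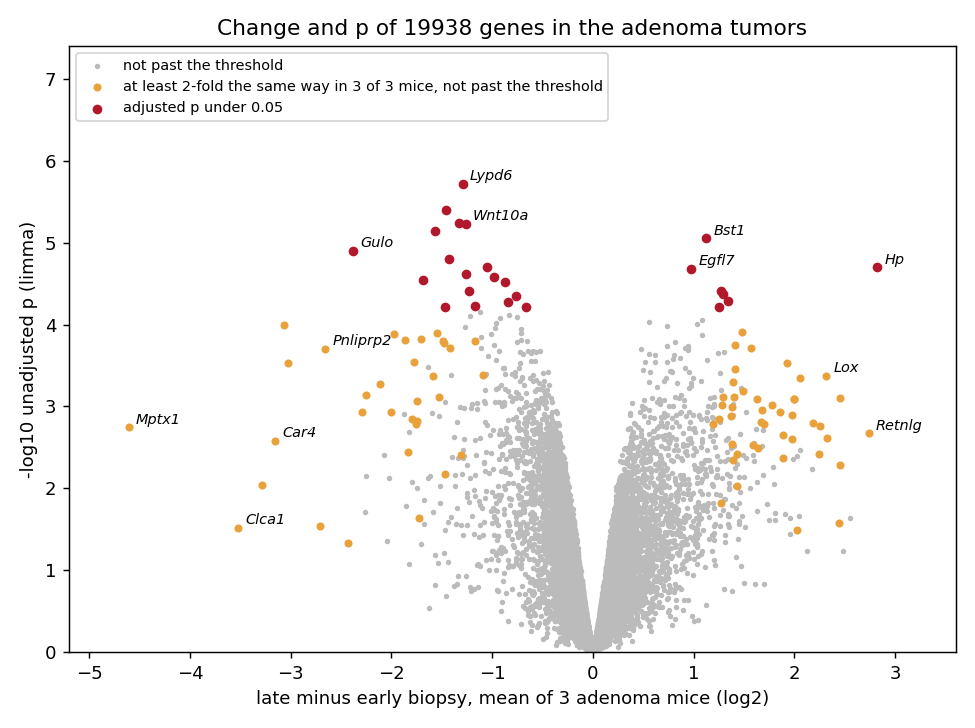
Mean change from early to late in the 3 adenoma mice (log2, horizontal) against -log10 of the unadjusted limma p (vertical) for 19938 genes. The 25 genes past the threshold, in red, include few of the largest changes; Mptx1 at -4.61 and Clca1 at -3.52 lie further from 0 and lower in the plot.

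In the Wnt pathway the changes that passed the test were decreases of ligands and receptors. The ligands Wnt10a and Wnt6, the co-receptor Lypd6, a membrane-anchored protein that binds Lrp6 and strengthens Wnt signalling, and the receptor Fzd10 fell, as did the glypican Gpc1, a heparan sulfate carrier at the cell surface. Wnt6 and Wnt10a are neighbours on chromosome 1 in the RefSeq gene order of GRCm38.p6, and Lypd6 and its relative Lypd6b are neighbours on chromosome 2. The stretches of 250 bases ahead of the annotated start of Wnt6 (chr1:74771642-74771891), Lypd6 (chr2:50066179-50066428) and Fzd10 (chr5:128600856-128601105), all on the plus strand of GRCm38.p6 and taken from RefSeq, are shown because these genes fell together. Each line runs 5′ to 3′, and capitals mark GC boxes, searched as GGGCGG on both strands.
Wnt6: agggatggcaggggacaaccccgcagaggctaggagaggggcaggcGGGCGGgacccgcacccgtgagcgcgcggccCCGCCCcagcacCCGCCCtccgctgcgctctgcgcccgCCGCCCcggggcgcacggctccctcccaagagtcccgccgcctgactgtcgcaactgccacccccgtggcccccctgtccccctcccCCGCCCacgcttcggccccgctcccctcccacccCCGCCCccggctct
Lypd6: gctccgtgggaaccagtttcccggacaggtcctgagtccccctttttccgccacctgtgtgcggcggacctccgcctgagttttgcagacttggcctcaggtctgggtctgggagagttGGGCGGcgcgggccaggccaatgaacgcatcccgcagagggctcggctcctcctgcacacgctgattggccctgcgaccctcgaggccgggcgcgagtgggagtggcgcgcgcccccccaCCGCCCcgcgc
Fzd10: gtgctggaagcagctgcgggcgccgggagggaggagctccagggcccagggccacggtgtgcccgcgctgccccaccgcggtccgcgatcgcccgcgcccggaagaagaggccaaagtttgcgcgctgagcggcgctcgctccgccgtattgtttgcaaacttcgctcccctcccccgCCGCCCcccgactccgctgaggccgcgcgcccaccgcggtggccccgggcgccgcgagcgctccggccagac
These stretches hold 6, 2 and 1 GC boxes, in that order, and 32.7% of 32817 mouse promoter stretches of this length hold at least 1. The TCF/LEF core motifs CTTTGA and CTTTGT, searched on both strands, were found 0 times in all 3, against 13.8% and 16.5% of all stretches that hold them. A promoter was found in the table for 11 of the 20 named genes past the threshold, and Wnt10a was not among them.

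Wnt10a had log2 intensities of 9.39, 10.43 and 9.66 early and 8.38, 8.96 and 8.34 late in mice 1755, 1803 and 1805. Every late array lay below every early one, and Wnt10a fell by 1.26 (SE 0.0984, n = 3 mice, limma adjusted p = 0.0292), a 2.40-fold difference. Wnt6 read 8.55, 9.34 and 8.96 early and 7.58, 7.78 and 7.71 late. Its groups did not overlap either, and the fall was again 1.26 (SE 0.122, limma adjusted p = 0.0401). The genes on either side of this pair, Prkag3 at -0.15 and Cdk5r2 at 0.10, did not pass the test. Lypd6 had the smallest p of all genes, with 7.59, 8.15 and 7.86 early against 6.43, 6.90 and 6.39 late and a fall of 1.29 (SE 0.0846, limma adjusted p = 0.0292). Lypd6b, the gene next to it, was lower by a similar amount on all 3 late arrays (-1.17, SE 0.154) and missed the threshold (limma adjusted p = 0.058), with -0.63 when the array set was a term, and Mmadhc on the other side stood at -0.01. Fzd10 read 8.61, 8.39 and 8.60 early and 7.63, 7.77 and 7.68 late, again without overlap, and fell by 0.84 (SE 0.0923, limma adjusted p = 0.0491). Gpc1 fell by 0.66 (limma adjusted p = 0.0491), and its groups overlapped, because the mice differed from each other by more than the change.

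**Figure D3:**
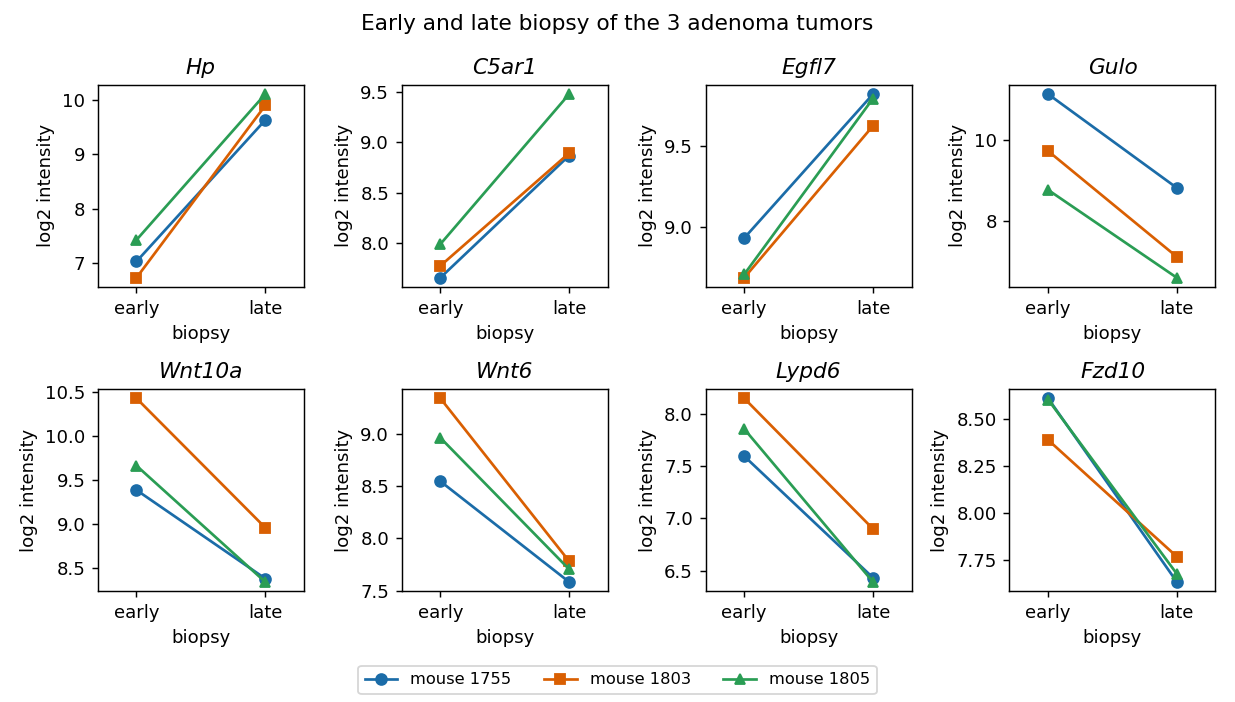
Log2 intensity of 8 genes in the early and late biopsy, one line per adenoma mouse, with a separate vertical scale for each gene. Hp, C5ar1 and Egfl7 are higher late in 3 of 3 mice, and Gulo, Wnt10a, Wnt6, Lypd6 and Fzd10 lower in 3 of 3.

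The remaining Wnt genes did not share one direction. Of 19 Wnt ligands, 5 were higher in 3 of 3 mice and 4 lower, where 17.0% of all genes were higher and 22.4% lower, and the median change was 0.01 (-0.01 over all genes). Wnt5a, a ligand that usually acts without beta-catenin and is made by stromal cells, had values of 9.57, 8.52 and 9.34 early and 10.89, 11.06 and 11.14 late. Its groups did not overlap and its difference was 1.88, and the limma adjusted p was 0.121. With the array set as a term the difference of Wnt5a was -0.05, and its change was 1.84 in mouse 2201, which crosses the split, and 0.46 and -0.66 in mice 3407 and 3413, which do not. Of 20 receptors and co-receptors, 4 were higher and 4 lower in all mice, and their median was 0.11. Of 23 inhibitors and feedback targets, 12 were lower in 3 of 3 mice and 3 higher, and 11 were lower and 2 higher at an unadjusted p under 0.05, with 0 past the adjusted threshold. The median was -0.33, and it differed between mice (-0.85 in mouse 1805, against -0.12 and -0.07 in mice 1755 and 1803) and was -0.09 without mouse 1805. Apcdd1, a membrane inhibitor of Wnt signalling, read 11.63, 12.79 and 12.46 early and 10.28, 11.76 and 9.45 late (-1.80, SE 0.343, limma adjusted p = 0.093). Bambi stood at -0.80 (limma adjusted p = 0.0866), and the feedback gene Axin2 at -0.49. Sfrp1, a secreted inhibitor singled out after its values were seen, was higher late, from 8.12, 6.92 and 9.46 to 11.49, 11.11 and 9.55. Its difference of 2.55 came from mice 1755 and 1803, with 0.09 in mouse 1805. Apc itself (0.04), Ctnnb1, which encodes beta-catenin (-0.17), Myc (-0.23, and 0.04 with the array set as a term) and the stem cell receptor gene Lgr5 (0.38) did not pass the test.

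Haptoglobin, the plasma protein that binds free haemoglobin, showed the largest change of the genes that rose. Hp read 7.03, 6.73 and 7.42 early and 9.63, 9.90 and 10.11 late, a gap of more than 2 log2 units between the highest early and the lowest late array. The rise was 2.82 (SE 0.266, limma adjusted p = 0.0378), or 7.07-fold. In the carcinoma tumors the change of Hp was 0.29 in mouse 2201, 1.54 in 3407 and 0.17 in 3413. Of 23 acute phase and iron handling genes, 7 were higher and 2 lower in 3 of 3 mice, where 17.0% of all genes were higher and 22.4% lower. The list had a median of 0.03. Ceruloplasmin (Cp), a copper-carrying ferroxidase, was higher in all mice by 0.97 (limma adjusted p = 0.0759). The serum amyloid A genes were split: Saa3 read 8.86, 8.81 and 9.08 early and 10.28, 10.35 and 10.27 late (1.38, limma adjusted p = 0.109), whereas Saa1 read 9.26, 9.92 and 10.51 early and 7.62, 5.0 and 8.94 late (-2.71, limma adjusted p = 0.225). Saa1 is nearly identical in sequence to Saa2, and the array may not separate them.

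C5ar1 encodes the C5a receptor of neutrophils and macrophages, through which complement attracts them, and read 7.65, 7.77 and 7.99 early and 8.87, 8.89 and 9.48 late. It rose by 1.27 without overlap (SE 0.134, limma adjusted p = 0.0462), and the difference was 0.76 with the array set as a term. Bst1, an ectoenzyme of myeloid and stromal cells, read 7.24, 6.66 and 8.13 early and 8.43, 7.72 and 9.26 late. The groups overlapped, but the step was nearly the same in each mouse, 1.12 on average (SE 0.0932, limma adjusted p = 0.0294). Of 18 neutrophil genes, 12 were higher in 3 of 3 mice and 1 lower, and 10 were higher at an unadjusted p under 0.05, with 0 past the adjusted threshold and a median of 1.25. Over all genes 17.0% were higher and 22.4% lower in 3 of 3 mice, and 7.38% were higher at an unadjusted p under 0.05. The list's mean level ran from 7.84 to 8.34 on early arrays and from 8.66 to 9.81 on late ones, highest in mouse 1805. Its part in the changes of C5ar1 and Bst1 was not tested. Retnlg, a resistin-like protein of neutrophils, had the largest difference of the list, from 8.49, 7.12 and 7.95 to 10.11, 10.22 and 11.44 (2.74, limma adjusted p = 0.105). The chemokine receptor gene Cxcr2 (2.19), the collagenase gene Mmp8 (2.46), the calprotectin subunit gene S100a8 (2.33) and the granule gene Ngp (1.41, limma adjusted p = 0.058) also had every late array above every early one. Other members of the list were near or below 0, among them the granule genes Elane (0.03), Mpo (-0.10) and Ltf (-0.52), singled out after their values were seen. Without mouse 1805 the list's median was 0.65, and with the array set as a term 1.66. In the carcinoma tumors the neutrophil medians were -0.43, 0.10 and 0.50 in mice 2201, 3407 and 3413. Complement itself had 6 of 22 genes higher and 6 lower in all mice, beside the 17.0% and 22.4% of all genes. Cd93, a receptor of endothelial and myeloid cells that is counted there, stood at 2.06 (limma adjusted p = 0.0722), and Cfb, the alternative pathway protease, at -0.54.

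Of 27 endothelial genes, 22 were higher in 3 of 3 mice and 2 lower, 21 were higher and 2 lower at an unadjusted p under 0.05, and Egfl7 passed the adjusted threshold. The median change was 0.98, with mouse medians of 0.88, 0.94 and 0.85. The mean level of the list was 8.67 to 8.78 on early arrays and 9.47 to 9.65 on late ones. Egfl7, a protein that endothelial cells secrete into the vessel wall, read 8.93, 8.68 and 8.70 early and 9.82, 9.63 and 9.80 late, so each late array was above each early one. It rose by 0.98 (SE 0.0927, limma adjusted p = 0.0378). Emcn, a sialomucin of capillary and venous endothelium, went from 9.24, 8.04 and 8.83 to 10.49, 10.48 and 11.07 (1.98, limma adjusted p = 0.0923). The TGF-beta co-receptor gene Eng (1.89), the VEGF receptor gene Flt1 (1.26) and the receptor gene Tie1 (1.29) also showed no overlap. Prox1, the master regulator of lymphatic endothelium, which is also on the Wnt target list, went against the list at -0.81, as did Sox17 at -0.96. In mouse 2201, whose arrays cross the same split, the endothelial median was 0.80, whereas in mice 3407 and 3413, whose arrays do not, it was 0.11 and -0.13. With the array set as a term the median was 0.09, Emcn stood at 0.34, Flt1 at 0.52, Tie1 at 0.18 and Egfl7 at 0.66. These values rest on mouse 2201 as the only carcinoma pair that crosses the split. The part of the array set in this pattern cannot be told apart from time within the adenoma tumors.

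Of 27 collagen chain genes, 20 were higher in 3 of 3 mice and 0 lower, 16 were higher at an unadjusted p under 0.05, and 0 passed the adjusted threshold, with a median of 0.64. The fibril collagen gene Col1a1 stood at 1.67, Col12a1 at 1.97, and the basement membrane chains Col4a1 and Col4a2 at 1.13 and 1.20. Chains Col4a3 to Col4a6, made by specialised basement membranes, stayed between 0.03 and 0.15. Lox, the enzyme that cross-links collagen, read 8.76, 7.86 and 8.55 early and 10.25, 10.94 and 10.93 late. Its groups lay far apart, and its difference of 2.32 just missed the threshold (SE 0.359, limma adjusted p = 0.0714). Of 27 matrix proteases and inhibitors, 13 were higher in all mice and 0 lower, with a median of 0.75. Of 22 fibroblast genes, 14 were higher and 1 lower, with a median of 0.85, and Grem1, a BMP antagonist of the stroma, stood at 2.03. The fibroblast median differed between mice, at 0.68, 1.24 and 0.25. Pericyte and smooth muscle genes were higher in mice 1755 and 1803 (medians 0.79 and 1.35) and not in mouse 1805 (-0.07). In the carcinoma tumors the collagen medians were 0.28, 0.10 and -0.39, and the fibroblast medians 0.60, 0.39 and -0.28. With the array set as a term the adenoma medians were 0.28 for collagen chains, 0.33 for matrix proteases, 0.13 for fibroblast and -0.32 for pericyte and smooth muscle genes, and Lox stood at 0.995, Col1a1 at 0.78, Col4a1 at 0.31 and Grem1 at 1.19. Without mouse 1803 the fibroblast median was 0.51.

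Among signalling genes of these tissues, Sema6d, a membrane semaphorin that guides cell migration, read 9.55, 8.69 and 9.51 early and 10.61, 9.93 and 11.09 late and rose by 1.29 (SE 0.137, limma adjusted p = 0.0468). Its difference was 0.84 with the array set as a term. Ddah1, which degrades a natural inhibitor of nitric oxide synthase, read 10.89, 9.84 and 10.88 early and 12.23, 11.10 and 12.30 late and rose by 1.34 (limma adjusted p = 0.0491). Glis3, a zinc finger factor related to the Gli proteins, read 8.84, 8.52 and 9.03 early and 9.85, 9.84 and 10.47 late and rose by 1.25 (limma adjusted p = 0.0491). In all 3 genes the late arrays lay above the early ones. The semaphorin list as a whole had 7 of 31 genes higher and 5 lower in all mice and a median of 0.04. The hedgehog list held 3 of 17 higher and 4 lower, close to the shares of all genes, 17.0% higher and 22.4% lower. Shh, the hedgehog ligand of the gut epithelium, stood at -0.79 and Boc, a co-receptor, at 1.41 (limma adjusted p = 0.0696). Of 29 TGF-beta and BMP genes, 15 were higher in all mice and 3 lower, with Tgfb1 at 0.66, and their median of 0.25 was -0.09 with that term. Of 21 Notch genes, 9 were higher and 2 lower, with the endothelial receptor gene Notch4 at 0.95. Among 23 angiogenic ligands, 7 were higher and 3 lower, and Fgf2 had the smallest p, at 1.08 (limma adjusted p = 0.057).

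Of the 13 named genes that fell, Gulo, Spink1, Cyp2d12 and Slc16a10 encode proteins of metabolism, secretion and transport. Gulo, which completes the synthesis of vitamin C in mice, read 11.14, 9.73 and 8.77 early and 8.81, 7.10 and 6.59 late. Each mouse was lower late by more than 2 log2 units, and the groups overlapped only because the mice started from different levels. The fall was 2.38 (SE 0.208, limma adjusted p = 0.0355), or 5.20-fold. Spink1, a trypsin inhibitor, read 10.55, 10.60 and 12.01 early and 9.30, 8.85 and 10.62 late and fell by 1.46 (limma adjusted p = 0.0491). Cyp2d12, a cytochrome P450, read 6.47, 6.94 and 8.15 early and 5.19, 5.18 and 6.50 late and fell by 1.57 (limma adjusted p = 0.0292). Slc16a10, a carrier of aromatic amino acids, read 9.41, 10.40 and 9.60 early and 8.51, 9.15 and 8.22 late and fell by 1.17 (limma adjusted p = 0.0491). It was the 1 gene past the threshold of 24 amino acid carriers, whose median was -0.04. Fer1l6, a member of the ferlin family, fell by 1.33 (limma adjusted p = 0.0292), and Efcab1, an EF-hand protein, fell by 1.69 (limma adjusted p = 0.0403). The zinc finger genes Zfp758 and Zfp709 fell by 0.98 and 0.77. Cyp2d12, Efcab1 and Zfp709 were dim, with means over all arrays of 5.89, 6.50 and 6.53. These lie below the 25th percentile of all genes, 6.69, so the filter on dim genes leaves them out.

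Larger decreases than these occurred without passing the test. Mptx1, a mucosal pentraxin, read 12.58, 7.67 and 11.75 early and 5.77, 5.72 and 6.68 late. It was low on all late arrays, and the difference of -4.61 varied with how high it had been (SE 0.921, limma adjusted p = 0.101). Car4, the membrane carbonic anhydrase of surface colonocytes, read 11.74, 11.63 and 12.82 early and 9.28, 7.08 and 10.36 late (-3.16, limma adjusted p = 0.108). Clca1, a secreted goblet cell protein, read 13.76, 12.70 and 13.62 early and 10.49, 7.27 and 11.76 late (-3.52, limma adjusted p = 0.23). Both were lowest in the late biopsy of mouse 1803. With the array set as a term Car4 stood at -6.20 and Clca1 at -9.34. In mice 2201, 3407 and 3413, from which that term is estimated, Car4 changed by 1.88, -1.22 and -1.11. Clca1 changed there by 2.47, -4.76 and -1.96. The pancreatic lipase relatives Pnliprp1 (-3.03, limma adjusted p = 0.0631) and Pnliprp2 (-2.66, limma adjusted p = 0.058) and the proton pump gene Atp12a (-2.25) were lower in all mice. The surface colonocyte list had 7 of 21 genes lower and 1 higher in 3 of 3 mice, where 22.4% of all genes were lower and 17.0% higher. This list had a median of -0.22, which was 0.06 without mouse 1803. Besides Car4 it held the chloride exchanger gene Slc26a3 (-2.25) and the sodium channel subunit genes Scnn1b (-0.93) and Scnn1g (-1.28), which stood at 0.00 and -0.29 with the array set as a term, while Krt20 (0.13) and Vil1 (0.18) were near 0. The goblet list had a median of 0.05, and its mucin gene Muc2 stood at -0.01. Epithelial identity genes had a median of 0.01, with 1 of 15 higher and 2 lower in all mice.

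Of 25 S phase genes, 15 were lower in 3 of 3 mice and 0 higher, 7 were lower at an unadjusted p under 0.05, and the median was -0.24. This median was 0.15 with the array set as a term and -0.13 without mouse 1805. Ccne2, a cyclin of S phase entry, stood at -0.69, and at 0.20 with that term; its change was -1.09 in mouse 2201 and -0.22 and -0.18 in mice 3407 and 3413. The replication factor gene Gins1 stood at -0.68, and at -0.38 with the term. The mitosis list had 2 of 24 lower and 0 higher in all mice, where 22.4% of all genes were lower and 17.0% higher. Its median of -0.11 was 0.16 in mouse 1755, and Mki67, the proliferation marker, stood at 0.09. Ribosomal protein genes had 7 of 16 lower and 1 higher, with medians of -0.23, 0.03 and -0.37 in mice 1755, 1803 and 1805. Rps14 stood at -0.71 and Rpl7 at -0.56, and at -0.34 and -0.30 with the term. Oxidative phosphorylation had 12 of 26 lower and 0 higher, with Ndufb8 at -0.52 (limma adjusted p = 0.058). Each of these lists had 0 genes past the adjusted threshold. The 5 small RNAs that passed were the small nucleolar RNAs Snora73a and Snora73b, the RNase P RNA copies Rprl1 and Rprl2 and the vault-like RNA Vaultrc5, which fell by 0.87 to 1.46; Vaultrc5, at -1.23, stood at -0.77 with the term. They were identified after their values were seen, and the members of each pair are close copies whose signals may not be separable. Of 54 small nucleolar RNAs measured, 25 were lower in 3 of 3 mice and 3 higher, with a median of -0.33, beside medians of 0.01 for 297 microRNAs and -0.01 for 18565 protein-coding genes. The small nucleolar RNA medians were -0.23, -0.10 and -0.68 in the adenoma mice and -0.11, -0.11 and -0.03 in the carcinoma mice.

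**Figure D4:**
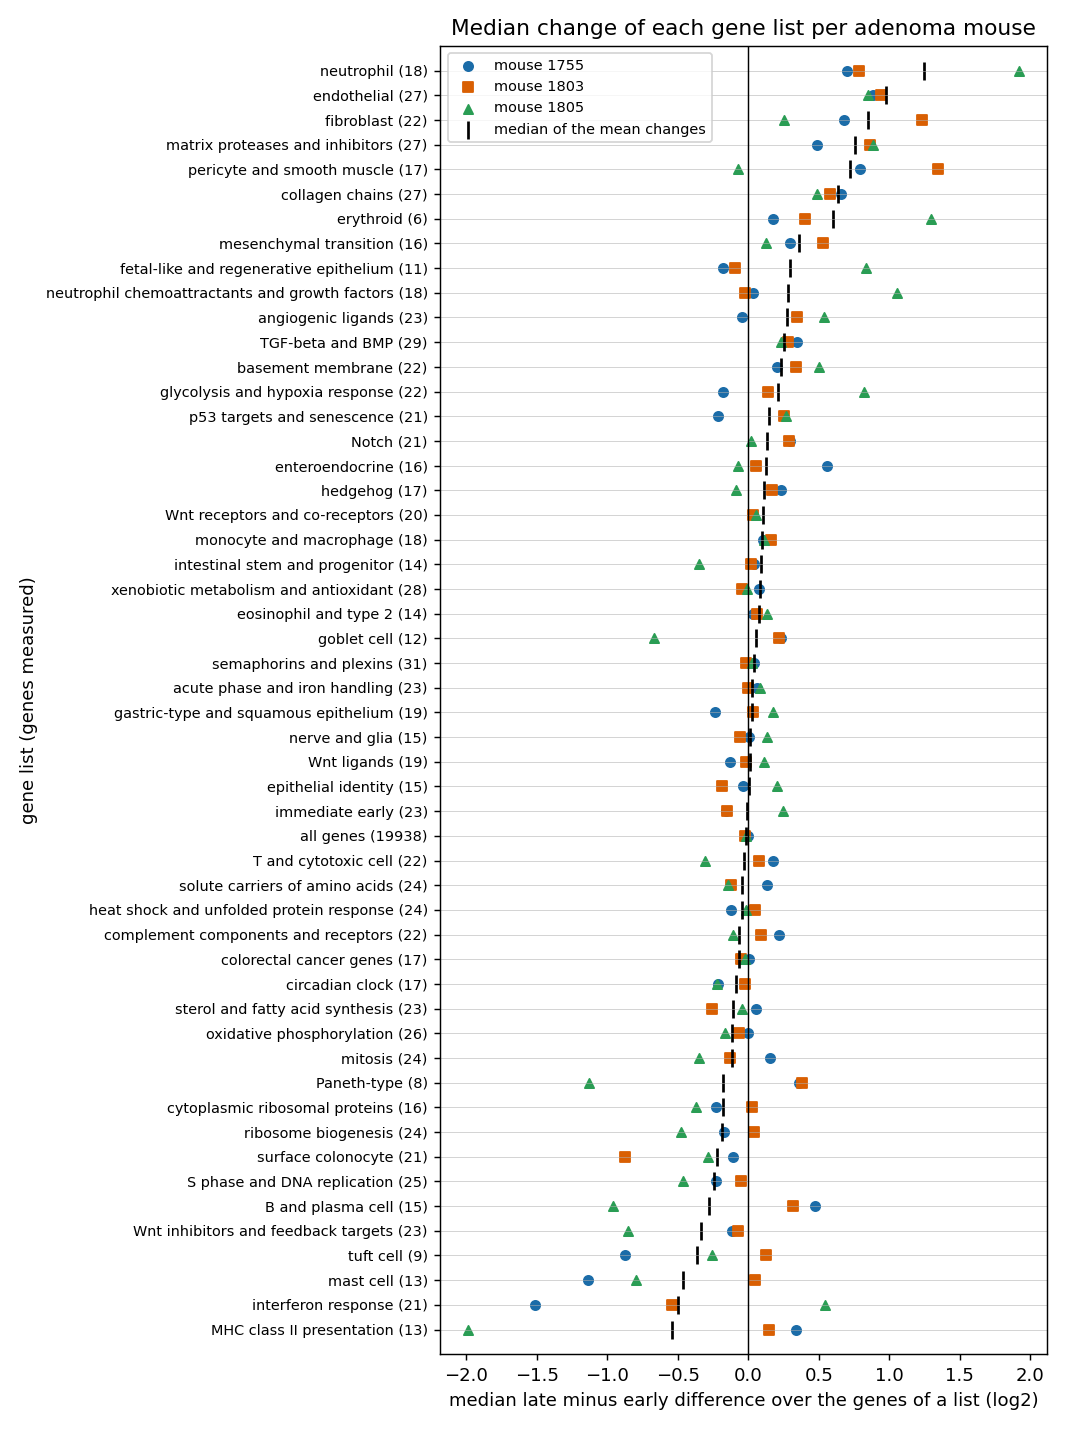
Median change from early to late (log2) over the measured genes of each list, by adenoma mouse (coloured symbols), with the median of the mean changes as a black bar and the number of genes in brackets. Endothelial and collagen medians lie close together in all 3 mice, whereas neutrophil, MHC class II and interferon medians differ widely between mice.

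Several immune lists had medians of opposite sign in different mice, and their differences between mice have no test. The MHC class II list had medians of 0.34 and 0.15 in mice 1755 and 1803 and -1.99 in mouse 1805. B and plasma cell genes followed the same division, at 0.48, 0.32 and -0.96, and their mean level on the early array of mouse 1805 was 10.44, beside 8.21 and 8.28 on the other early adenoma arrays and 8.93 on its late one. The follicular B cell genes Cr2 (-4.28), Fcer2a (-3.94) and Ms4a1 (-3.83) and the B cell receptor genes Cd79a (-3.36) and Cd79b (-3.24) were lower late in mouse 1805, whereas Cd79a stood at 1.67 in mouse 1755 and 0.85 in 1803. Mouse 1805 also had higher late values of the neutrophil chemokine genes Cxcl3 (4.30, beside -0.97 and 0.05) and Cxcl2 (3.36), of Ccl3 (4.02) and of the scavenger receptor gene Olr1 (3.75, beside 0.22 and 0.30). Chemoattractant genes had a median of 1.06 in this mouse and of 0.03 and -0.02 in the others. Interferon response genes had medians of -1.51, -0.54 and 0.55, and Usp18, which damps interferon signalling, stood at -3.04, -2.49 and -0.70. Mast cell genes had medians of -1.14, 0.05 and -0.80. Mcpt1, a protease of mucosal mast cells, read 13.23, 9.40 and 11.24 early and 7.32, 8.25 and 8.45 late, with the largest difference in mouse 1755. Erythroid genes, which mark blood in the sample and of which 6 were measured, had medians of 0.17, 0.40 and 1.3. Of these, 3 were higher and 0 lower in all 3 mice, with 0 past the adjusted threshold. Alas2 stood at 1.48, 1.77 and 4.10 and Slc4a1 at 0.60, 1.99 and 3.95, and every late array lay above every early one.

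Other genes were named because 1 mouse stood apart from the other 2. In mouse 1755 the phospholipase gene Pla2g4c stood at -5.04, beside 0.14 and -0.56. In mouse 1803 the matrix proteoglycan gene Lum stood at 3.98, beside 0.38 and -1.42, and the antimicrobial lectin gene Reg3b at -0.59, beside 3.25 and 3.71. With 1 array per biopsy, such values have no replicate, and the part of the piece of tissue sampled in them was not tested.

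The last comparison asked whether the changes of the adenoma tumors differed from those of the tumors that became carcinoma. For the difference of the changes 0 of 19938 genes passed the adjusted threshold (limma), with 1404 (7.04%) at an unadjusted p under 0.05 and a lowest adjusted p of 0.456. All 3 adenoma pairs cross the array split, and of the carcinoma pairs only that of mouse 2201 does. The intervals also differed, at 140, 282 and 309 days in the adenoma mice and 172, 128 and 83 in the carcinoma mice. Pathology, array set and interval therefore cannot be told apart in this contrast. For the change within the carcinoma tumors, taken from the same fit to all arrays, 0 genes passed, with 858 (4.30%) at an unadjusted p under 0.05. Of the 25 genes that passed in the adenoma tumors, 20 moved the same way in mouse 2201, 22 in 3407 and 19 in 3413, and the median share of the adenoma change reached was 23.4%, 18.2% and 15.8%. These genes were chosen on the adenoma change, so their smaller change elsewhere is a description. Lypd6 came closest to the adenoma value, with -0.73, -0.86 and -0.90 in mice 2201, 3407 and 3413, whereas Wnt10a stood at -0.14, -0.11 and -0.12. Wnt10a differed between the pathologies by -1.14 (SE 0.139), Spink1 by -1.87, Cyp2d12 by -1.48, Bst1 by 1.11, Ddah1 by 1.47 and Sema6d by 1.17, none past the adjusted threshold. Pld5, a relative of phospholipase D, had the smallest p for the difference and differed mainly through the carcinoma tumors, at 1.39, 1.14 and 1.10 there and -0.04, -0.52 and -0.11 in the adenoma mice.

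**Figure D5:**
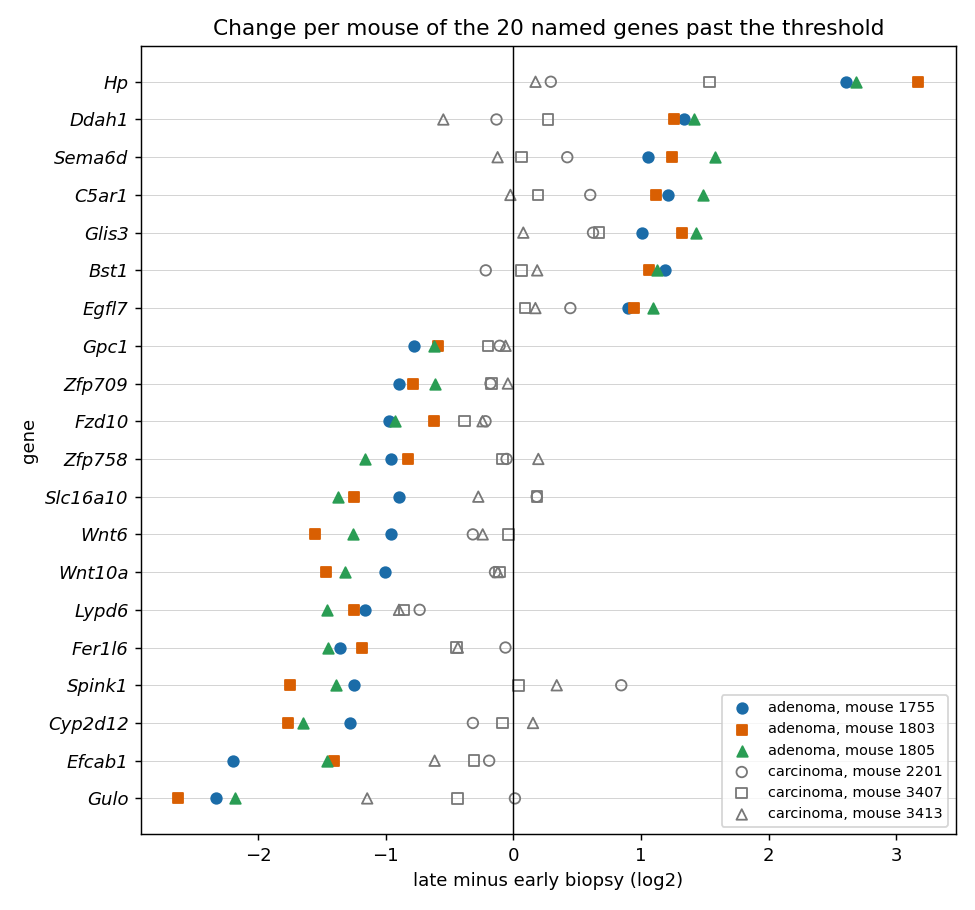
Change from early to late (log2) of the 20 named genes past the threshold in each adenoma mouse (filled symbols) and each carcinoma mouse (open grey symbols). The genes were chosen on the filled symbols; the open ones lie mostly nearer 0, and those of Lypd6 reach -0.90.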

How the data were processed

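Values are log2 intensities of 35557 probe sets as the authors deposited them; the labels give no unit, and the log base was read from their range. Their summarisation and normalization are not given in the sources used here. Of the probe sets, 21789 carry 1 gene symbol, of which the brightest on average was kept for the 999 genes with several, leaving 19938 genes. limma 3.58.1 in R 4.3.3 was fitted to all 12 arrays with mouse as a fixed block and separate late coefficients for adenoma and carcinoma tumors, with 2-sided tests and an adjusted p under 0.05. The pairing comes from the animal: both arrays of a mouse correlated in their deviations from the group means at r = 0.29 to 0.50 in the adenoma mice. In the carcinoma mice 2201, 3407 and 3413 this correlation was 0.04, 0.33 and 0.28. The early array of mouse 3413 correlated with the late array of mouse 2201 at 0.29. The pairing is thus weakly seen in mouse 2201, which shares in the pooled spread and carries the array set term. Each mouse gave 1 array per time point, so p-values measure the spread of the changes between mice, pooled over adenoma and carcinoma tumors.

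The members, the 51 gene lists (965 genes measured) and the naming rule were chosen with earlier results of these data known. The rule covers every gene past the threshold. It adds the 12 per direction with the largest change among those at least 2-fold in all mice. Next come up to 4 members per list by smallest p, and up to 4 per direction by smallest p for the difference between pathologies. Also covered are the 4 per direction most particular to 1 mouse, and Apc, Ctnnb1, Myc, Lgr5, Axin2 and Mki67. Apart from the genes past the threshold, not every gene that met the rule is given in the text. List members given beyond the rule illustrate a list and were picked after their values were seen. Small RNAs and predicted genes are counted. Lists are described by counts and medians and were not tested. Their counts in 3 of 3 mice stand beside 17.0% higher and 22.4% lower over all genes. Those at an unadjusted p under 0.05 (limma) stand beside 7.38% higher and 10.7% lower. Alternatives were the block, normalization, centring, a filter at the 25th percentile, probe set averaging, prior, array weights, array set, adenoma arrays alone and each mouse left out. The script was tested on simulated data.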

Additional observations from a re-analysis of the deposited data

Results flagged for a closer look

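The circadian clock list is given here because its median was below 0 in each adenoma mouse and above 0 in each carcinoma mouse. Of its 17 measured genes, 4 were higher and 7 lower in 3 of 3 adenoma mice, where 17.0% of all genes were higher and 22.4% lower. The median change from early to late was -0.083 in the adenoma tumors, with -0.21, -0.02 and -0.22 in mice 1755, 1803 and 1805, and 0.31, 0.29 and 0.12 in mice 2201, 3407 and 3413. In mouse 1803 the median of all genes was -0.03, close to that of the list. The difference between the pathologies was not tested. Nr1d2, a repressor in the clock, stood at -0.49, -0.29 and -0.60 in the adenoma mice, a mean of -0.46, and at 0.48, 0.54 and 0.34 in the carcinoma mice. Ciart stood at -0.67 and Cry2 at -0.46 in the adenoma mice. Other members of the list rose there, by up to 0.50. At an unadjusted p under 0.05 (limma), 2 genes of the list were higher and 6 lower in the adenoma mice. Over all genes these shares were 7.38% and 10.7%.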

How the results depend on the processing

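The number of genes past the threshold in the adenoma comparison, 25, was 2 with no replicate block on the mouse (Fzd10 and Zfp758), 57 with median centring, 13 with dim genes left out, 0 with the array set as a term (1142 at an unadjusted p under 0.05) and 0 on the adenoma arrays alone (2846). It ran from 0 to 78 when 1 mouse was left out. It was 17 to 28 under quantile normalization, probe set averaging, a trended robust prior and array weights. Under every one of the 15 alternatives the genes that had passed kept their direction where they were present. These were 22 genes with dim genes left out and 25 otherwise. Each kept an unadjusted p under 0.05, except 1 of the 25 with no replicate block. Most alternatives could not have reversed a direction. The prior, the filter, the block, adenoma arrays alone and dropped carcinoma mice leave the adenoma change as it was. These genes moved the same way in every adenoma mouse, so weighting arrays or dropping an adenoma mouse cannot reverse them. The count for the difference between pathologies was 0 under the 14 of them that include carcinoma arrays. With the array set as a term, 25 of the 51 list medians moved by more than the SD between mice. Of 3780 values of named genes under alternatives 45 had the other sign, 0 of them of genes past the threshold. The cause was not tested. With 3 tumors and 1 array per biopsy, the number of arrays limits the precision.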
